A study of Mus musculus with 27 samples.

Results

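Long-term formative pluripotent stem cells (fPSCs) were compared with epiblast-like cells (EpiLCs) by bulk RNA-seq. fPSCs are mouse pluripotent cells that self-renew at a stage between naive mouse embryonic stem cells (mESCs) and primed epiblast stem cells (EpiSCs), and EpiLCs are the short-lived cells that naive mESCs become on the way there. The comparison took in 5 of the 27 samples of the series and 5 of its 19 bulk RNA-seq libraries: 3 libraries of fPSCs, at passages P10, P20 and P30, and 2 libraries of EpiLCs, all deposited together and all labelled wild type. Both kinds of cell received N2B27 with Activin A at 20 ng/ml and bFgf2 at 12 ng/ml. fPSCs also received the Wnt inhibitor XAV939 (5 uM) and, per the study's methods, grew embedded in Matrigel. EpiLCs received 1% KSR (knockout serum replacement) and no XAV939. The 3 fPSC libraries are successive passages with 1 library each, not separate derivations. Their line is CMT according to the study's text. The labels give the line neither of these libraries nor of the EpiLCs. XAV939, growth in a gel, serum replacement and time in culture all differ between the groups and cannot be told apart within these 5 libraries.

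In the embryo, naive pluripotency is lost at implantation, and the epiblast then becomes a polarized epithelium. At its posterior side Wnt3, Nodal and Bmp4 signals switch on T, Eomes and Mixl1, the transcription factors of the primitive streak, from which mesoderm and definitive endoderm leave. In the same period the de novo DNA methyltransferases close a set of germline genes by methylating their promoters.

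The unit is FPKM, fragments mapped to a transcript scaled for its length and for the size of the library. The lowest sum of FPKM in a library was 320918 and the highest 383760, with 10034 to 10639 genes at 1 FPKM or above. Read counts are not part of the table used, and sequencing depth is therefore unknown. Over the 12316 genes tested, the 3 fPSC libraries had a mean Pearson r between 0.985 and 0.988 with each other, and the EpiLC libraries had an r of 0.974. Each fPSC library had a mean r between 0.922 and 0.926 with EpiLCs, between 0.882 and 0.889 with EpiSCs and between 0.796 and 0.801 with mESCs. These correlations are across genes, which are not independent replicates.

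The 3 genes given as marks of this difference, T, Nanog and Fgf8, stood higher in every fPSC library than in either EpiLC library. T (Brachyury), which drives mesoderm formation, was at 16.5, 14.7 and 19.1 FPKM at P10, P20 and P30, and at 0.168 and 0.256 FPKM in EpiLCs. Nanog, a pluripotency factor that falls on exit from the naive state and returns in the posterior epiblast, was at 75.4, 66.4 and 82.8 FPKM in fPSCs and at 8.60 and 8.0 FPKM in EpiLCs. Fgf8, a growth factor of the streak, was at 75.1, 102 and 85.3 FPKM against 3.11 and 1.03 FPKM. None of the 3 genes overlapped between the groups, and none of them ran in one direction with passage. In bulk RNA a lower level may be fewer expressing cells or less RNA per cell, which cannot be told apart. The log2 fold change on the scale of log2(FPKM + 1), which understates changes of genes with low values, was 3.87 for T (standard error 0.19), 3.02 for Nanog (0.16) and 4.93 for Fgf8 (0.30), with limma adjusted p between 3.03e-06 and 7.67e-06. At P1, the first passage of fPSCs, T was at 0.452, Nanog at 14.4 and Fgf8 at 4.23 FPKM, near EpiLCs. XAV939 at 5 uM is listed for P1 too. Epiblastoids, grown in Matrigel per the study's methods, are listed with 1% KSR and no XAV939. At days 2, 3 and 4, with 1 library each, they had 0.753, 15.5 and 38.0 FPKM of T. Nanog was at 13.9, 44.9 and 34.8 FPKM there, and Fgf8 at 9.72, 36.9 and 201 FPKM. What sets these levels was not tested. In the 4 fPSC libraries of the other deposit, from 4 lines at P11 to P24, T ran from 5.37 to 30.3, Nanog from 53.6 to 72.3 and Fgf8 from 45.4 to 95.7 FPKM.

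Across all genes, 3178 of 12316 passed the threshold, set at 0.05 for limma's adjusted p and at 1.5 for the fold change (25.8%). Of these, 1224 were higher in fPSCs (9.94% of the genes tested) and 1954 lower (15.9%). The median log2 fold change over all genes tested was −0.09. Changes of at least 4-fold were seen in 71 of the genes that were higher and in 168 of those that were lower. The libraries of the groups did not overlap in 57.8% of all genes tested. With the fPSCs of both deposits taken as 1 group, 708 genes were higher and 1020 lower. Of the 1954 genes that were lower, 627 (32.1%) were under 1 FPKM in all 3 fPSC libraries, and of the 1224 that were higher, 225 (18.4%) were under 1 FPKM in both EpiLC libraries.

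**Figure D1:**
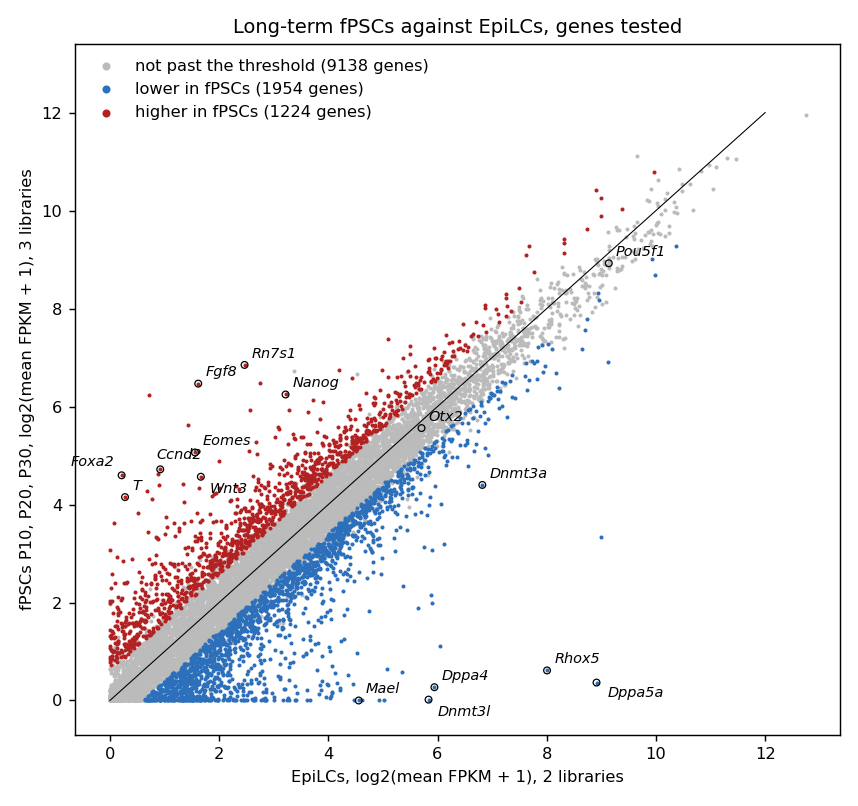
Mean level of each gene tested in the 2 EpiLC libraries (x axis) and in the 3 fPSC libraries (y axis), both as log2(mean FPKM + 1), with genes past the threshold in colour and the line of equal level in black. Fgf8, T, Nanog and Foxa2 stand far above the line, while Dppa5a, Rhox5, Dnmt3l and Mael stand near 0 in fPSCs, and Pou5f1 and Otx2 lie close to the line.

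The 12 genes with the largest rise included 4 of the streak. Besides Fgf8 and T these were Foxa2, a factor of the anterior streak and endoderm, and Eomes, which acts with T in mesendoderm. Eomes was at 29.6, 32.9 and 34.7 FPKM in fPSCs and at 1.8 and 2.09 FPKM in EpiLCs, which gives a log2 fold change of 3.50 with a standard error of 0.26 (limma adjusted p = 2.42e-05). Prickle1, a component of planar cell polarity signalling, was at 40.1, 46.9 and 57.0 FPKM against 1.96 and 1.39 FPKM, and it was already at 23.3 FPKM at P1. Cyclin D2 (Ccnd2), which carries cells through G1, was at 14.5, 23.0 and 38.5 FPKM against 1.13 and 0.658 FPKM. The sulfotransferase Chst1 and the metal transporter Slc39a8 had log2 fold changes of 3.74 and 3.64. Cxx1c, a gene derived from a retrotransposon, had the largest, 5.49, at 62.3, 67.1 and 93.4 FPKM against 0.667 and 0.622 FPKM. Its reads may be shared with near-identical copies.

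The remaining 3 of the 12 largest rises were structural RNAs that carry no poly(A) tail, Rn7s1, Rn7s2 and Rn7sk. Rn7s1 was at 103, 134 and 105 FPKM in fPSCs against 2.66 and 6.39 FPKM in EpiLCs. These levels also differed among libraries of the same kind: Rn7s1 was between 1.08 and 2.79 FPKM in the 4 fPSC libraries of the other deposit, at 194 and 178 FPKM in the 2 fPSC libraries derived from epiblasts, and at 391 and 1641 FPKM in the 2 mESC libraries. Of the 14 genes without a poly(A) tail that were tested, these 3 rose (9.94% of all genes) and 3 histone genes fell (15.9%). Hist1h1a fell by 1.03, Hist1h3a by 0.82 and Hist1h2ae by 0.62 on the log2 scale, all at or under 4.10 FPKM in the 5 libraries.

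The 12 genes with the largest fall included genes of the naive state and of the germline. Dppa5a, an RNA-binding protein of naive cells and germ cells, was at 307 and 654 FPKM in EpiLCs and at 0, 0.109 and 0.756 FPKM in fPSCs, so that its log2 fold change was −8.49 with a standard error of 0.34 (limma adjusted p = 1.32e-06). Rhox5, an X-linked homeobox gene, was at 247 and 265 FPKM against 0.177, 0.795 and 0.618 FPKM. Dnmt3l, the cofactor of the de novo methyltransferases, was at 71.6 and 40.6 FPKM against 0.0276, 0 and 0.00912 FPKM. The paired chromatin proteins Dppa2 and Dppa4 fell by 4.88 and 5.63 on the log2 scale, and Gdf3, a ligand of the TGF-β family, by 4.46. Mael, a gene of the piRNA pathway, was at 18.7 and 26.3 FPKM in EpiLCs and is listed at 0 in all 3 fPSC libraries (limma adjusted p = 1.02e-06). Rpl10l, Rbmxl2 and Fmr1nb, all known from the testis, are listed at 0 in the 3 fPSC libraries as well, against 17.8 to 38.8 FPKM in EpiLCs. Rps4l fell from 419 and 604 FPKM to 16.9, 10.2 and 0.170 FPKM. The apoptosis gene Pmaip1 (Noxa) was at 40.0 and 39.9 FPKM in EpiLCs and at 1.35, 0.166 and 0 FPKM in fPSCs, but it was at 31.1 and 28.3 FPKM in the BVSC and ROSAmTmG fPSC lines. Reads of Rpl10l, Rps4l and Dppa5a may be shared with near-identical copies.

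**Figure D2:**
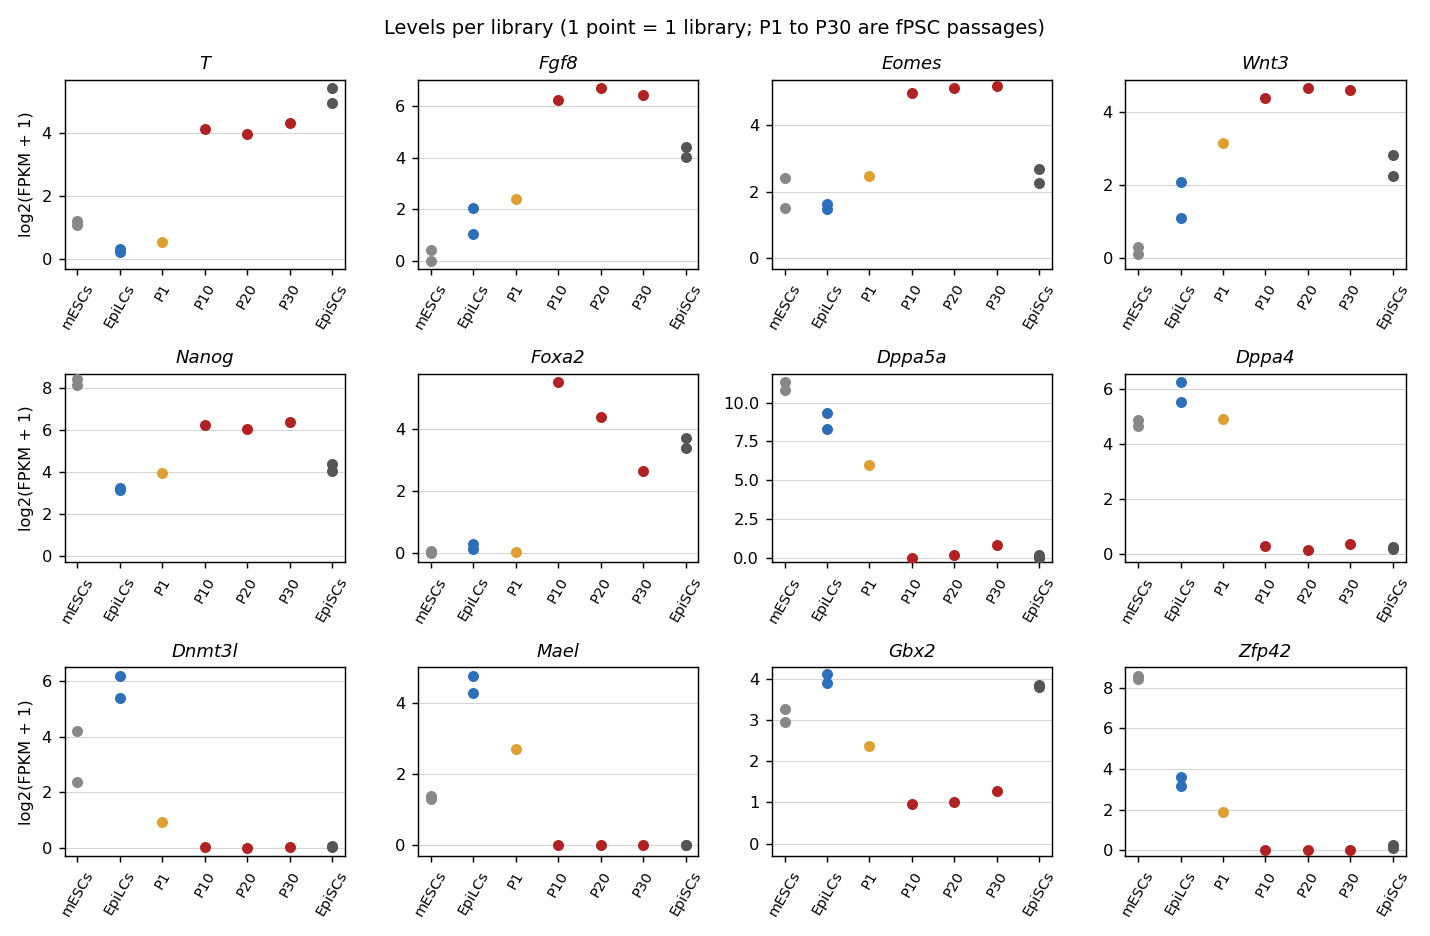
Levels of 12 genes as log2(FPKM + 1), 1 point per library, in mESCs, EpiLCs, fPSCs at P1, P10, P20 and P30, and EpiSCs. T, Fgf8, Eomes, Wnt3, Nanog and Foxa2 are high at P10 to P30, Dppa5a, Dppa4, Dnmt3l, Mael and Zfp42 are near 0 there and in EpiSCs, and P1 lies nearer to EpiLCs than to P10 for T, Fgf8, Eomes, Nanog and Foxa2.

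Of the 24 genes in a list of primitive streak genes, 18 were tested, of which 13 rose (background 9.94%) and 1 fell, with a median log2 fold change of 2.27 against −0.09 over all genes. Wnt3, the ligand that starts the streak, was at 20.1, 24.4 and 23.6 FPKM in fPSCs and at 3.22 and 1.13 FPKM in EpiLCs. The other members that rose, chosen after their values were seen, included Wnt8a (10.4, 14 and 24.2 FPKM against 0.976 and 0.457 FPKM) and the factors Mixl1, Gsc, Lhx1, Evx1 and Nkx1-2. The summed level of the list was between 244 and 259 FPKM in fPSCs and between 13.0 and 21.9 FPKM in EpiLCs. The member that fell was Mesp2, by 1.05 on the log2 scale from 1.23 and 1.15 FPKM. Under 1 FPKM in all 5 libraries were 9 of the 24 genes, and Mesp1, Tbx6, Msgn1, Pdgfra and Kdr, genes of mesoderm named after their values were seen, were among them.

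Of 10 endoderm genes tested, 7 rose and none fell (median 1.35), where 9.94% of all genes rose and 15.9% fell. The lists share members, and Foxa2 and Gsc stand in both the streak and the endoderm list. Cer1, a secreted antagonist of Nodal, was at 21.1, 10.2 and 2.73 FPKM in fPSCs and at 0.105 and 0 FPKM in EpiLCs. Cxcr4, a receptor of migrating endoderm, was at 7.99, 8.75 and 2.40 FPKM against 0.522 and 0.120 FPKM. Sox17 was at 3.57, 3.49 and 0.265 FPKM against 0.123 and 0.0994 FPKM, with an adjusted p of 0.0482 in limma. The count of endoderm genes that rose was between 4 and 9 when 1 library was left out, with 4 without EpiLCs replicate 2 and 9 without fPSCs P30. It was 3 with the fPSCs of both deposits taken as 1 group, where Sox17 and Cxcr4 did not pass.

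Of 18 Wnt targets tested, 5 rose (9.94% of all genes) and 1 fell (15.9%), with a median of 0.30. XAV939 was present in the fPSC medium and absent from that of EpiLCs. Axin2, the common feedback target, was at 12.2, 9.76 and 16.8 FPKM in fPSCs and at 3.22 and 1.91 FPKM in EpiLCs, and Sp8 at 2.1, 4.37 and 6.58 FPKM against 0.386 and 0.0976 FPKM. Nkd2 fell by 1.02 on the log2 scale, while Lef1, Tcf7 and Ccnd1 had log2 fold changes of 0.49, 0.04 and 0.38 and did not pass. In the BMP pathway 8 of 15 genes rose (9.94% of all genes) and none fell (15.9%), with a median of 0.69. The target Id1 was at 3.80, 6.16 and 6.83 FPKM against 0.912 and 1.04 FPKM, and the antagonist Chrd at 8.57, 4.33 and 2.47 FPKM against 0.406 and 0.503 FPKM. Id1 did not pass with the fPSCs of both deposits (limma adjusted p = 0.0595). Bmpr1a, the receptor, differed by −0.03 and did not pass.

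In the Nodal pathway 4 of 20 genes rose (9.94% of all genes) and 5 fell (15.9%). Lefty2, an inhibitor, was at 24.9 and 12.3 FPKM in EpiLCs and at 1.29, 2.97 and 2.81 FPKM in fPSCs, and Gdf3 and Gdf1 also fell. Lefty1, its neighbour inhibitor, was at 63.9, 73.4 and 53.8 FPKM against 49.9 and 24.5 FPKM, with an adjusted p of 0.0507. Furin, the protease that matures Nodal, rose by 1.83, and did not pass with the fPSCs of both deposits (limma adjusted p = 0.0955). In the Fgf/Erk pathway 6 of 21 genes rose (9.94% of all genes) and 4 fell (15.9%). Fgf8 rose while Fgf4, the ligand of the naive epiblast, fell from 58.6 and 58.9 FPKM to 5.52, 6.54 and 10.2 FPKM. The feedback genes Spred2 and Spry2 rose by 1.60 and 1.39, but did not pass with the fPSCs of both deposits. Spred2 was between 17.7 and 20.7 FPKM in the 4 fPSC libraries of the other deposit, against 30.8 and 19.1 FPKM in EpiLCs. Spry2 was between 26.2 and 40.1 FPKM there, against 26 and 19.6 FPKM. These libraries include the CMT line. The phosphatases Dusp4 and Dusp6 fell by 1.19 and 0.90. Etv5, a target, was at 151, 166 and 166 FPKM against 171 and 113 FPKM, so the groups overlapped.

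**Figure D3:**
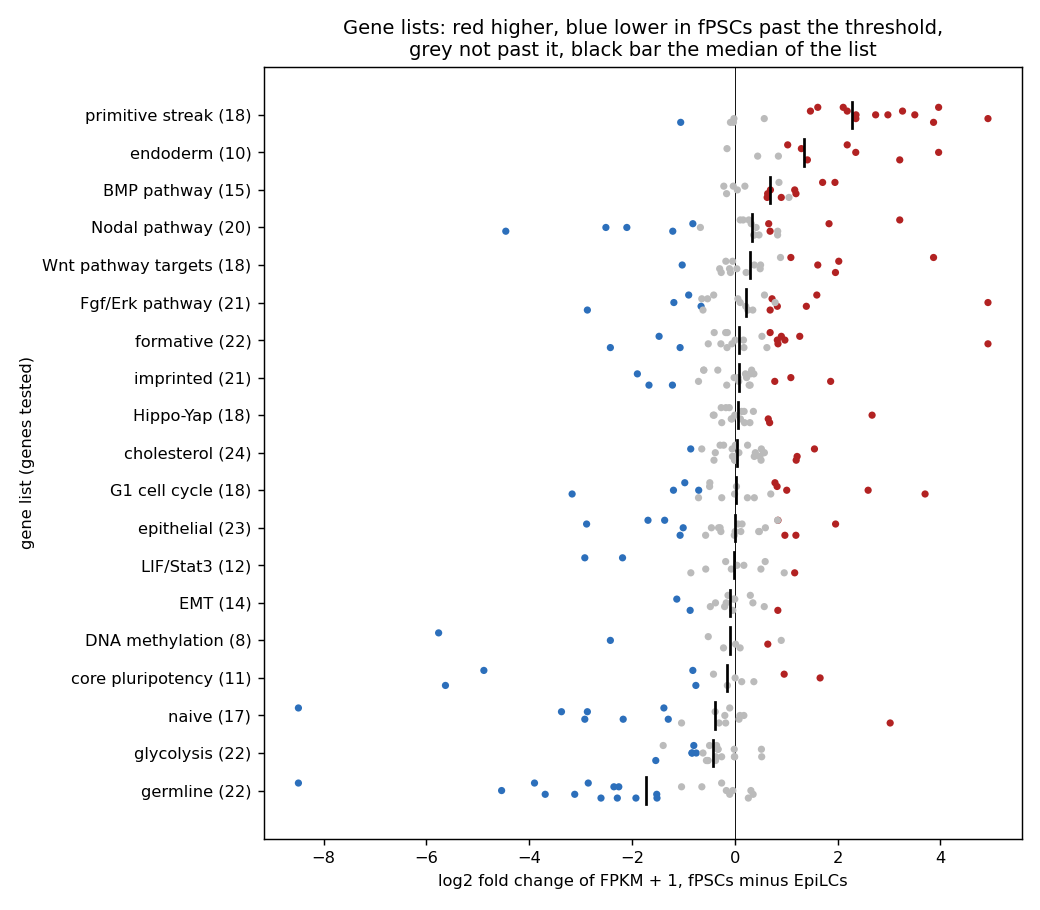
Log2 fold change (fPSCs minus EpiLCs, x axis) of each tested gene in 19 gene lists, 1 point per gene, with genes past the threshold in red or blue and the median as a black bar. The streak list has the highest median, 2.27, and the germline list the lowest, −1.72, while most lists lie near 0.

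Of the 11 core pluripotency genes tested, 2 rose (9.94% of all genes), 4 fell (15.9%) and 5 did not pass. Pou5f1 (Oct4) was at 493, 462 and 499 FPKM in fPSCs, within the range of EpiLCs, 392 and 732 FPKM, and its log2 fold change of −0.14 (standard error 0.24) did not pass. Sox2 was at 26.6, 25 and 25.7 FPKM against 24.8 and 22.0 FPKM, with a log2 fold change of 0.13. Otx2, which marks formative cells, was at 48.9, 48.7 and 40.9 FPKM against 50.8 and 51.6 FPKM (log2 fold change −0.15). Utf1 was at 460, 498 and 508 FPKM against 479 and 493 FPKM. Sall4 and the RNA-binding protein Lin28a rose by 1.66 and 0.96, but did not pass with the fPSCs of both deposits. In the 4 fPSC libraries of the other deposit Sall4 was between 47.1 and 61.1 FPKM, against 51.7 and 29.1 FPKM in EpiLCs. Lin28a was between 121 and 210 FPKM there, against 214 and 143 FPKM. Dppa2, Dppa4, Tdgf1 and, named after its values were seen, Zfp281 fell, of which Tdgf1 did not pass with both deposits.

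Of 22 formative genes 7 rose (9.94% of all genes) and 3 fell (15.9%), with a median of 0.09. Fgf8, which also stands in the streak and Fgf/Erk lists, was 1 of these 7. Fgf5 was at 107, 85.2 and 72.9 FPKM in fPSCs and at 44.0 and 54.1 FPKM in EpiLCs, a log2 fold change of 0.83 with an adjusted p of 0.0167. Pou3f1 (Oct6) was at 34.0, 40.0 and 35.4 FPKM against 111 and 95.2 FPKM, a log2 fold change of −1.47. Grhl2, which opens epithelial enhancers, fell by 1.06. Of the 17 naive genes 7 fell (15.9% of all genes) and 1, Nanog, rose (9.94%). Gbx2 was at 16.4 and 13.8 FPKM in EpiLCs and at 0.949, 1.02 and 1.42 FPKM in fPSCs, and Zfp42 (Rex1) at 7.80 and 11.3 FPKM against 0.0179, 0 and 0 FPKM. Of the naive genes 7 were under 1 FPKM in all 5 libraries.

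Among the enzymes of DNA methylation, Dnmt3a was at 20.0, 21.4 and 18.9 FPKM in fPSCs and at 117 and 107 FPKM in EpiLCs, and its log2 fold change was −2.42 with a standard error of 0.33 (limma adjusted p = 0.000862). Dnmt3b was at 547, 435 and 413 FPKM against 629 and 693 FPKM. Its log2 fold change of −0.52 had an adjusted p of 0.0412 but was under 1.5-fold, and thus did not pass. Dnmt1, the maintenance enzyme, was at 48.3, 51.1 and 46.1 FPKM against 49.2 and 41.1 FPKM, a gene chosen after its values were seen. Uhrf1, which guides Dnmt1, rose by 0.64 on the log2 scale, but did not pass with both deposits. It was between 110 and 122 FPKM in the 4 fPSC libraries of the other deposit, under the 191 and 131 FPKM of EpiLCs.

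Of 22 germline genes tested, 13 fell (background 15.9%) and none rose, with a median log2 fold change of −1.72. Their summed level was between 398 and 758 FPKM in EpiLCs, most of it Dppa5a, and between 4.20 and 5.88 FPKM in fPSCs. Tuba3a, a tubulin of the testis with a near-identical copy, fell by 3.90 on the log2 scale. Members chosen after their values were seen were Ddx4 (Vasa), at 5.90 and 6.66 FPKM in EpiLCs and at 0.0223, 0 and 0 FPKM in fPSCs, and the meiotic gene Hormad1, at 5.49 and 10.5 FPKM in EpiLCs and listed at 0 in fPSCs. Dazl, at 5.59 and 2.96 FPKM in EpiLCs, is also listed at 0 in fPSCs. Prdm1 and Tfap2c, early factors of primordial germ cells chosen in the same way, did not pass and were at or under 1.09 FPKM in all 5 libraries.

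Promoters of these genes were read in the DNA methylation and histone data of fPSCs at P10. The files were used without a counterpart in EpiLCs, so they describe fPSCs only, and coverage is not given. All 13 germline genes that fell had a mean methylated fraction of 0.667 or more within 1000 bp of the start site, with a median of 0.924. The 13 streak genes that rose had fractions between 0.00625 and 0.205, with a median of 0.0226. H3K4me3, a mark of open promoters, had a median of 0.472 RPKM at the germline genes and 5.08 RPKM at the streak genes, and H3K27me3, the Polycomb mark, 0.463 and 2.38 RPKM. T had 5.15 RPKM of H3K4me3 and 3.34 RPKM of H3K27me3, and Eomes 6.99 and 1.83 RPKM. All tested genes had medians of 2.96 RPKM of H3K4me3 and 0.283 RPKM of H3K27me3.

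The 250 bases before the annotated start of 5 genes are shown to set the promoter of T, a streak gene that rose, beside those of 3 germline genes (Mael, Ddx4, Hormad1) and of Dnmt3l, which fell, all 5′ to 3′ along the gene on the NCBIM37 (mm9) assembly, with each CpG in capitals. T lies on the plus strand (chr17:8627038-8627287). Mael (chr1:168168876-168169125) and Ddx4 (chr13:113442519-113442768) lie on the minus strand, and Hormad1 (chr3:95363349-95363598) and Dnmt3l (chr10:77504442-77504691) on the plus strand.
T: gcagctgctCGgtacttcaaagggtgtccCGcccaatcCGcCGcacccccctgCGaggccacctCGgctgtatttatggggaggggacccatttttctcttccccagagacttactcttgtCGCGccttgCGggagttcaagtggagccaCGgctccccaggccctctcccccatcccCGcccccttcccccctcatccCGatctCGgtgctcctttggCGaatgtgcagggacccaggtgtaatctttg
Mael: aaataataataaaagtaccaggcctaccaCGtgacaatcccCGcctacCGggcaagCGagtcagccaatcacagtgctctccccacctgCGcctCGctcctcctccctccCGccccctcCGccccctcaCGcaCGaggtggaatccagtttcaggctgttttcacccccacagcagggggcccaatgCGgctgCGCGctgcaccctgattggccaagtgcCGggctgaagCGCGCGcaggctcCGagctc
Ddx4: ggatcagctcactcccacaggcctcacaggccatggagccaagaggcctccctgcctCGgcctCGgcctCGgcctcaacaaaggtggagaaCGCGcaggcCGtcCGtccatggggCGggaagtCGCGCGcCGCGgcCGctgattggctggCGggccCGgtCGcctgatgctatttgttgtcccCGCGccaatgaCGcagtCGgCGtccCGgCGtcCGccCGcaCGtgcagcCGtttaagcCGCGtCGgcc
Hormad1: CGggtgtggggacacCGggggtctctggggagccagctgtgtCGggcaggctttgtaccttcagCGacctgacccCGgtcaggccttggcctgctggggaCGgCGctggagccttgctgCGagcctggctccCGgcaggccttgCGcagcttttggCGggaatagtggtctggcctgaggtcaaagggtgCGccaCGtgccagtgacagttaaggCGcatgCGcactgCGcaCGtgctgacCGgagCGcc
Dnmt3l: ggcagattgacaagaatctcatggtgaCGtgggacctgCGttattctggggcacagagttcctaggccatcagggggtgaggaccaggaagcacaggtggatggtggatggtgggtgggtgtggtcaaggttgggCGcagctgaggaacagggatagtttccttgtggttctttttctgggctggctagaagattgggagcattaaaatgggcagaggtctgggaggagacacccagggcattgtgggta

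The methylated fractions given here are means within 1000 bp of the start site, a region wider than the stretches shown. The stretch of T holds 14 CpGs, and its promoter had a methylated fraction of 0.0226 (19 windows). The stretches of Mael, Ddx4 and Hormad1 hold 18, 31 and 19 CpGs. Their promoters had fractions of 0.966, 0.939 and 0.955 (14, 14 and 15 windows). The stretch of Dnmt3l holds 3 CpGs, and its promoter had a fraction of 0.977 (9 windows). The median was 15 CpGs over the 13 germline genes that fell, 14 over the 13 streak genes that rose and 9 over 19273 promoters. The E-box CACGTG, its own reverse complement, was present in 6 of the 13 germline promoters, in 6.54% of all promoters and in 8.37% of those of tested genes. TCCCGC or its reverse complement was present in 6 of the 13, in 20.9% of all promoters and in 29.6% of those of tested genes.

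**Figure D4:**
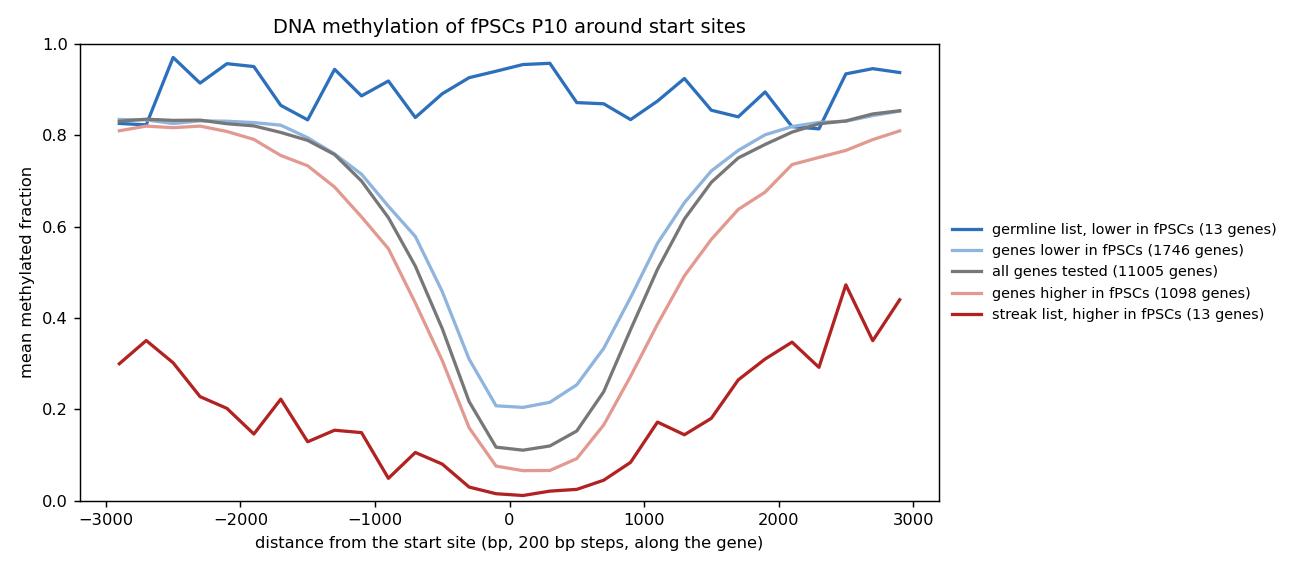
Mean methylated fraction of fPSCs at P10 (y axis, 0 to 1) by distance from the start site (x axis, up to 2900 bp on either side), for classes of genes by their change from EpiLCs. All genes tested dip to 0.111 just after the start site, genes lower in fPSCs to 0.204 and genes higher to 0.0660, while the 13 germline genes stay at 0.955 there and the 13 streak genes at 0.0115.

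Over all genes the same order held for the classes taken whole, but among genes that were lower it differed by their level in fPSCs. A promoter methylated at a fraction of 0.5 or more was found for 8.58% of genes higher in fPSCs (95% Wilson interval 7.07% to 10.4%, 1095 genes), 28.4% of genes lower (26.3% to 30.6%, 1732 genes) and 13.1% of genes not past the threshold (12.3% to 13.8%, 8137 genes). The intervals cover counting of genes only. Of the genes lower and under 1 FPKM in all 3 fPSC libraries, 60.7% (529 genes) had such a promoter. Of those lower but at 1 FPKM or more in any fPSC library, 14.2% (1203 genes) had one. Among genes not past the threshold and under 1 FPKM in all 3 fPSC libraries the share was 39.6% (1042 genes).

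The direction of change was set beside that of EpiSCs against mESCs, which shares no library with it. EpiSCs, like fPSCs, received XAV939 (5 uM), with Activin A at 20 ng/ml, bFgf2 at 12 ng/ml and 15% KSR. No XAV939 is listed for mESCs or EpiLCs. In both comparisons XAV939 therefore goes with the kind of cell, and the 2 cannot be told apart. Per the study's methods EpiSCs grew on mouse embryonic fibroblasts, and mESCs without feeders in 2i/lif medium. In EpiSCs the fibroblast genes Acta2, Tagln and Mmp2 had means of 161, 299 and 55.1 FPKM, and Dcn and Thy1 2.35 and 4.32 FPKM. Xist was at 5.96 and 7.11 FPKM in EpiSCs against 0.406 and 0.474 FPKM in mESCs. Eif2s3y, on Y, was at 0.0182 and 0.0298 against 27.4 and 35.8 FPKM. What these differences add was not tested. In the same fit 57.3% of genes passed the threshold between EpiSCs and mESCs, and 39.2% between EpiLCs and mESCs. Of the 1224 genes higher in fPSCs than in EpiLCs, 834 (68.1%) were also higher in EpiSCs than in mESCs and 71 (5.80%) lower, against 26.7% and 30.6% of all genes tested. Of the 1954 genes lower in fPSCs, 1095 (56.0%) were lower in EpiSCs and 260 (13.3%) higher. The 834 genes were 25.3% of all genes higher in EpiSCs, and the 1095 genes 29.1% of all those lower. Eomes and Fgf8 stood above EpiSCs, which had means of 4.59 and 17.6 FPKM, whereas T did not, at 36.3 FPKM in EpiSCs. Nanog was at 17.7 FPKM in EpiSCs and 315 FPKM in mESCs, with fPSCs between them.

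The single P1 library is listed with Activin A, bFgf2 and XAV939 at the doses of P10 to P30. It stood between the groups. Its mean r was 0.959 with EpiLCs and 0.957 with the 3 long-term fPSC libraries. On the line from the mean of EpiLCs (0) to that of long-term fPSCs (1), its median place was 0.48 for the genes that were higher and 0.47 for those lower. The streak genes that rose had a median place of −0.01, with 11 of 13 nearer to EpiLCs, against 51.8% of all genes that were higher. All 7 endoderm genes were nearer to EpiLCs, while germline genes that fell had a median of 0.41. Dnmt3l had reached 0.879 FPKM at P1, and Dppa4 was still at 29.1 FPKM. With 1 library at P1 there is no replicate check of these places.

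Along P10, P20 and P30, 4 of 12316 genes passed the threshold for a trend (0.0325%), fitted with limma as a log2 change per 10 passages, and 514 (4.17%) had an unadjusted p under 0.05. Foxa2 was at 44.3, 20.0 and 5.24 FPKM and fell by 1.43 per 10 passages (standard error 0.15). Cer1 fell by 1.28 and Penk, an opioid peptide gene at 35.8, 17.6 and 7.05 FPKM, by 1.10. Evx1, a factor of the posterior streak, rose by 0.83 from 1.44 to 3.52 and 6.72 FPKM, and was named after its values were seen since it is under 10 FPKM. All 4 had an adjusted p of 0.0425, and none passed with a pseudocount of 0.1 or without the filter on low values. All 10 endoderm genes had a negative trend, with a median of −0.67, against 6909 of all 12316 genes and a median of −0.02. Apart from Foxa2 and Cer1 these genes did not pass, Sox17 and Gsc with limma adjusted p of 0.48 and 0.37. With 3 evenly spaced passages the slope is set by P10 and P30, which are 1 library each. Sox17 (3.57, 3.49 and 0.265 FPKM) and Cxcr4 (7.99, 8.75 and 2.40 FPKM) were low at P30 only. Of the streak genes 5 of 18 had a negative trend. CMT fPSCs at P11 in the other deposit had 31.9 FPKM of Foxa2 and 46.2 FPKM of Cer1, and EpiLCs had at most 0.230 and 0.105 FPKM. In that deposit 46C at P24 had 81.9 and 203 FPKM, BVSC at P14 30.8 and 16.2 FPKM, and ROSAmTmG at P12 9.43 and 2.23 FPKM.

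**Figure D5:**
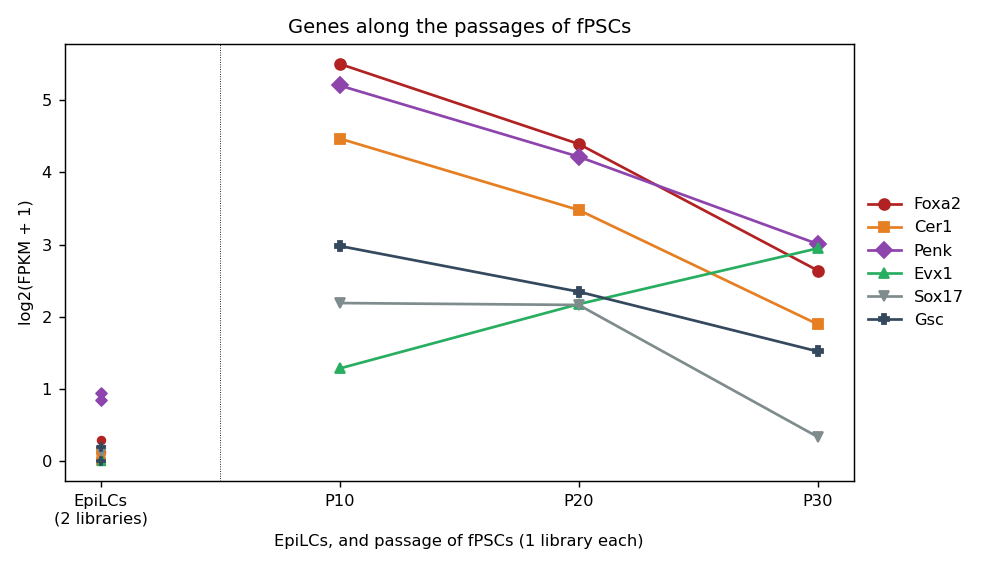
Levels as log2(FPKM + 1) of 6 genes in the 2 EpiLC libraries and in fPSCs at P10, P20 and P30 (1 library each). Foxa2, Cer1, Penk and Gsc decline from P10 to P30, Sox17 is low at P30 and Evx1 climbs, all starting from near 0 or under 1 FPKM in EpiLCs.

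Of 18 genes of the G1 phase 5 rose (9.94% of all genes) and 4 fell (15.9%). Cdk6 was at 30.9, 35.6 and 47.0 FPKM against 6.32 and 4.47 FPKM. Ccnd3 rose by 1.01 and did not pass with the fPSCs of both deposits. Cdkn2a, an inhibitor of Cdk4 and Cdk6, was at 0.754, 0.604 and 0.285 FPKM against 11.5 and 14.1 FPKM. Of 22 glycolysis genes 5 fell (15.9% of all genes) and none rose (9.94%), with a median of −0.43. Pdk1, which keeps pyruvate from the mitochondria, fell by 1.54 and Ldhb by 0.83, neither of which passed with both deposits, while Gapdh differed by less than 0.01. Of 24 genes of cholesterol synthesis and transport 3 rose (9.94% of all genes) and 1 fell (15.9%), with a median of 0.05. Ebp, which rose by 1.55, was between 17.9 and 23.8 FPKM in the 4 fPSC libraries of the other deposit too.

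Among epithelial genes 4 of 23 rose (9.94% of all genes) and 5 fell (15.9%). Cdh1 (E-cadherin) was at 198, 175 and 185 FPKM in fPSCs and at 199 and 176 FPKM in EpiLCs, a log2 fold change of −0.01. Krt8 rose from 7.02 and 11.7 FPKM to 47.7, 47.9 and 24.6 FPKM, and Cldn4 fell from 19.9 and 31.9 FPKM to 2.80, 2.17 and 2.71 FPKM. Cdh2 (N-cadherin) was at 6.48, 4.76 and 2.72 FPKM against 1.88 and 2.2 FPKM, with a limma adjusted p of 0.0458. It did not pass with both deposits. In EpiSCs, which grew on fibroblast feeders per the study's methods, Cdh2 stood at 30.3 FPKM, and the part of feeder RNA was not tested. Of the EMT genes 1 of 14 rose (9.94% of all genes) and 2 fell (15.9%). Of 23 genes of matrix and adhesion 1 rose (9.94% of all genes), 2 fell (15.9%) and 20 did not pass (median 0.01). Itgb5 rose by 1.82, while Col18a1 and Itgb4 fell by 1.20 and 1.19. Of 18 Hippo genes 3 rose (9.94% of all genes), none fell (15.9%) and 15 did not pass (median 0.05). Amot, which holds Yap in the cytoplasm, rose by 2.67, Lats1 by 0.68 and Wwtr1 by 0.65. In the 4 fPSC libraries of the other deposit Wwtr1 was between 7.25 and 9.03 FPKM, against 10.7 and 8.0 FPKM in EpiLCs. Lats1 was between 5.24 and 5.80 FPKM there, against 5.01 and 3.93 FPKM.

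Of 21 imprinted genes 3 rose (9.94% of all genes) and 3 fell (15.9%). Meg3 and Mirg, of the same maternally expressed cluster, fell by 1.90 and 1.67, and Dlk1, its paternally expressed neighbour, rose by 0.78. Igf2 rose from 1.27 and 0.558 FPKM to 4.71, 6.79 and 6.25 FPKM, and H19 fell by 1.21. None of these 5 genes passed with the fPSCs of both deposits. CMT fPSCs at P11 had 42.4 FPKM of Meg3 and 3.47 FPKM of H19, above the 30.2 and 41.0 FPKM and the 1.68 and 2.14 FPKM of EpiLCs, and the other lines ran from 2.35 to 56.5 FPKM of Meg3 and from 0.0363 to 2.77 FPKM of H19. Grb10 was at 52.2, 25.8 and 144 FPKM in fPSCs, a spread wider than the difference from EpiLCs.

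The part of other cell types in these values was not tested, and their markers are given by list. Fibroblast genes summed to between 26.8 and 28.4 FPKM in EpiLCs and between 13.2 and 13.5 FPKM in fPSCs, with 16 of 22 under 1 FPKM in all 5 libraries. Dcn was at 4.48 and 6.10 FPKM in EpiLCs and is listed at 0 in fPSCs. Blood genes summed to between 7.95 and 8.03 FPKM in EpiLCs and between 1.86 and 2.25 FPKM in fPSCs, with 10 of 12 under 1 FPKM in all 5 libraries. Of the 2 tested, Cd34 fell and Csf1r had a log2 fold change of 0.20 and did not pass. Of the extraembryonic endoderm genes 4 of 9 rose, Sox17, Gata4, Foxq1 and, named after its values were seen, Gata6, while Lrp2 fell (9.94% and 15.9% of all genes). With both deposits Sox17, Gata4 and Foxq1 did not pass. That list summed to between 53.8 and 54.0 FPKM in EpiLCs and between 65.5 and 77.5 FPKM in fPSCs. The trophoblast list summed to between 40.3 and 56.7 FPKM in EpiLCs and between 68.3 and 121 FPKM in fPSCs, of which Krt8 and Krt18 made the most.

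Median log2 fold changes of the autosomes lay between −0.20 (chromosome 18) and −0.02 (chromosome 15), and that of X was −0.04. For the 3 tested genes of Y the median was −0.84 at P10, −0.92 at P20 and −2.18 at P30. Eif2s3y was at 8.13, 8.24 and 1.85 FPKM in fPSCs, at 20.6 and 33.5 FPKM in EpiLCs, at 19.1 FPKM at P1 and at 21.5 FPKM in CMT fPSCs at P11.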

How the data were processed

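RNA of fPSCs and EpiLCs was sequenced in bulk. The authors aligned reads with TopHat2 2.1.1 to mm9 and deposited FPKM from Cufflinks 2.1.1 for 19 libraries, without read counts, so depth is unknown and no count test was run. H3K4me3 and H3K27me3 of fPSCs at P10 come in 100 bp bins as RPKM that the authors deposited after alignment with Bowtie2 2.2.2, and DNA methylation as the methylated fraction in windows of 100 bp (BS-Seeker2), without coverage. Whether 1 replicate or both went into each of these files is not stated. The single-cell count tables were not used.

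Of 23608 entries, 4 with repeated names were left out. Values were taken as log2(FPKM + 1) and compared with limma 3.58.1 in R 4.3.3 (empirical Bayes with trend, Benjamini-Hochberg) in 1 fit over 9 libraries (mESCs, EpiLCs, EpiSCs, fPSCs P10, P20 and P30) and 12316 genes, those reaching 1 FPKM in 2 or more libraries, with 5 residual degrees of freedom. Columns of the table were matched to samples by name. The replicate numbers of the EpiLCs and the passages do not show separate derivations, so p-values measure the spread between these libraries, which may be technical. An exact permutation test of 3 against 2 cannot go below 0.1. Data were also simulated with normal noise for 12316 genes, 200 of them changed and drawn only from genes above a floor of mean level. There the comparison of fPSCs with EpiLCs recovered 70.6%, 93.9% and 100% of changes of 1, 1.5 and 2 on the log2 scale. False calls were 10 among 186. These rates do not cover genes with low values, nor data in which far more genes change.

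Positions came from the NCBIM37 annotation, with 1 position for 19273 of 23604 genes. Methylation windows held a CpG in 99.5% of cases, against 49.1% when shifted by 100 kb. Promoter methylation was the mean of at least 3 windows within 1000 bp, and histone marks were averaged up to 2500 bp to either side.

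Genes named in the text are the 12 largest rises and 12 largest falls past the threshold (no overlap of libraries, mean of 10 FPKM or more in 1 group), T, Nanog, Fgf8, genes the study assayed otherwise, up to 3 rises, 3 falls and 3 highest levels per list, and up to 3 rises and 3 falls with passage. Members and lists were chosen with earlier results of these data known, so counts over lists are descriptions. Alternatives were other pseudocounts, filters, scalings, sets of libraries and promoter windows.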

Additional observations from a re-analysis of the deposited data

How the results depend on the processing

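For fPSCs against EpiLCs the count of 3178 genes past the threshold lay between 2166 and 3284 when 1 library was left out, lowest without EpiLCs replicate 2, and stayed within 1.5 times of it with a pseudocount of 0.1, no filter, upper-quartile scaling, the robust option or only the 5 libraries compared. With the fPSCs of both deposits as 1 group it was 1728. There 50 of the 122 named genes past the threshold did not pass, among them Rn7s1, Rn7s2, Rn7sk, Pmaip1, Sall4, Lin28a, Tdgf1, Sox17, Cxcr4, Id1, Furin, Spred2, Spry2, Uhrf1, Ccnd3, Cdh2, Pdk1, Ldhb, Dhcr7, Igf2, H19, Meg3, Mirg, Dlk1 and Eif2s3y. Streak genes that rose numbered 10 there and 13 under the other alternatives, and germline genes that fell between 12 and 16. The passage trend in fPSCs gave 0 genes with a pseudocount of 0.1 and 0 with no filter, and 5 with upper-quartile scaling. The share of genes lower in fPSCs that were lower in EpiSCs was 58.3% with a pseudocount of 0.1 and 52.5% with no filter. Promoters at a fraction of 0.5 or more within 500 bp were 6.42% for genes higher and 22.7% for genes lower. The gap in median log2 fold change between the highest and the lowest autosome was 0.18, 0.26 with a pseudocount of 0.1 and 0.063 with no filter. Among the named genes not past the threshold, the Cdh1 log2 fold change turned to 0.058 with upper-quartile scaling and lay between −0.098 and 0.079 when 1 library was left out, above 0 without EpiLCs replicate 1 and without fPSCs P20 (0.035). The Otx2 log2 fold change turned to 0.20 with both deposits. The Pou5f1 log2 fold change turned to 0.30 with both deposits and to 0.31 without EpiLCs replicate 2, and passed at −0.59 without EpiLCs replicate 1. The Dnmt3b log2 fold change passed at −0.64 without fPSCs P10. The cause was not tested. No paired analysis was possible because the fPSC libraries carry passages and no replicate numbers. Without read counts, what depth limits is unknown.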
